A study of Mus musculus with 6 samples.

Results

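The genes described here are those of the Nrf2 antioxidant pathway: Nfe2l2, which encodes the transcription factor Nrf2, its inhibitor Keap1, and the target genes Hmox1, Nqo1, Gclc, Gclm, Txnrd1, Srxn1, Slc7a11 and Gsr. They were chosen by name from general knowledge of the pathway and from an earlier reading of the same arrays in which Nfe2l2 was lower after REST knockdown. The comparison of knockdown with control therefore took part in the choice, and the members' own changes are given as a description without p-values. Of the 10 genes, 9 had a named probe on the array, with 16 of its 25697 probes. Gsr, glutathione reductase, had no probe of that name in the annotation used and is not analysed here. A probe counted as above background on an array where its detection p there was under 0.05. It was tested if that held for 3 or more of the 6 arrays, which 10 of the 16 probes, from 6 genes, did.

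The samples were cultures of E14, a mouse embryonic stem cell line, that carried either the pSuper vector as control (3 samples) or an shRNA against REST (3 samples), both for 72 h. REST is a repressor that silences neuronal genes outside neurons, and an shRNA is a short hairpin that reduces a chosen transcript. Total RNA was measured as biotin-labelled cRNA on 6 single-colour Illumina bead arrays. The labels name 1 shRNA and no control hairpin, and no other agent, genotype or clone.

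Nrf2 is made continuously and is destroyed as fast, because Keap1 hands it to a Cul3 ubiquitin ligase. Oxidants and electrophiles modify cysteines of Keap1, Nrf2 then accumulates, enters the nucleus with a small Maf partner and binds antioxidant response elements near its targets. These targets make glutathione, reduce thioredoxin and peroxiredoxin, and break down haem and quinones. Much of this control acts on the protein, which arrays of RNA do not measure.

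The mean intensity per array lay between 442 and 473, and 46.4% to 49.0% of probes were above background. The only Rest probe was above background on none of the 6 arrays, so the knockdown could not be checked on its target. The stem cell label was checked against 10 markers, among them Pou5f1, Sox2 and Nanog, and all 10 passed the filter on background (summed intensity 93598 to 98660 in control and 91167 to 94337 in knockdown samples). Of these 10, 2 were called higher and 1 lower in knockdown samples (limma adjusted p under 0.05). By the same rule 13.9% of all tested genes were higher and 13.1% lower. Summed intensities of markers of other cells also moved between the groups, but few of these genes were tested. Called were 2 of 3 tested fibroblast markers (lower), 1 of 2 trophoblast, 1 of 2 endoderm and 3 of 4 neuronal markers (higher). The summed intensity of 9 fibroblast markers ranged from 2271 to 2778 in control and from 1439 to 1841 in knockdown samples, with Col1a1, Col3a1, Dcn, Lum and Postn above background on no array. The sum of 7 trophoblast markers ranged from 3133 to 4271 and from 6342 to 7345, with Elf5, Eomes, Gata3 and Hand1 on no array. The sum of 8 neuronal markers ranged from 459 to 513 and from 741 to 864, with Dcx, Neurod1, Snap25 and Tubb3 on no array, and that of 7 endoderm markers from 106 to 126 and from 132 to 144, with Afp, Foxa2, Gata4, Sox17 and Ttr on no array. The part of these shifts in the results that follow was not tested. The labels do not state whether replicates came from separate cultures, so errors and p-values cover only the spread among these 6 samples, possibly technical in part.

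Nfe2l2 had the largest change of any member, and it was a fall. Its brighter probe read 7.70, 8.13 and 7.84 on the log2 scale in the 3 control samples and 6.55, 6.29 and 6.36 in the 3 knockdown samples. The lowest control sample lay 1.15 above the highest knockdown sample. The log2 change was -1.49 ± 0.14 (SE, n = 3 per group; 95% interval -1.80 to -1.18), a level 2.81-fold lower in the knockdown. On the linear scale of the deposited table the intensity went from 219 ± 27.5 to 69.4 ± 9.17 (SD, n = 3). Of 8740 genes tested, each at its brightest probe, Nfe2l2 ranked 15th among the falls. Nfe2l2 was chosen with its fall known, so the rank describes the size of the fall and is no evidence for it. In bulk samples, less RNA per cell and fewer cells that carry the RNA cannot be told apart.

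The other Nfe2l2 probe carried no usable signal. Its intensities were -4.6, 2.8 and -8.1 in control and 4.6, -1.9 and 8.3 in knockdown samples, where 0 is the background, and it was above background on none of the 6 arrays. It was not tested, so the fall rests on a single probe. That fall was present under each of the 13 other settings tried, between -1.59 and -1.20. All of these settings reuse this probe and these arrays, so they add no independent evidence.

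**Figure D1:**
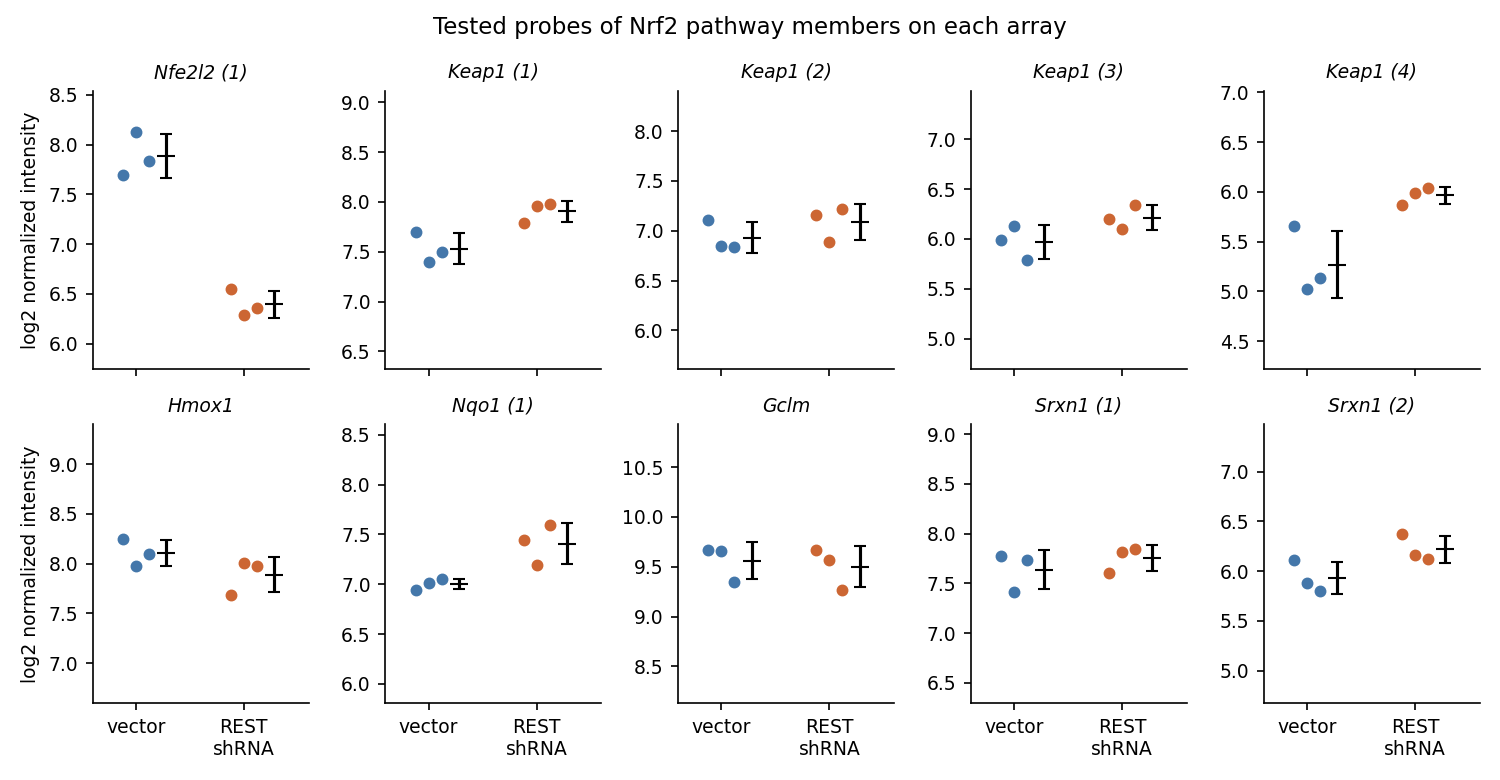
Log2 normalized intensity of each of the 10 tested member probes in the 3 vector and 3 REST shRNA samples (points), with the mean and SD of each group in black; every panel spans the same range on the log2 scale, and the number after a gene is the rank of its probe by brightness. Nfe2l2 shows a clear gap between the groups, from 7.70 down to 6.55, while the group means of the other probes differ by at most 0.69.

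Keap1 is the adaptor that holds Nrf2 for degradation, and its 4 probes were all higher on average in the knockdown, by unequal amounts. The brightest read 7.70, 7.40 and 7.49 in control and 7.79, 7.96 and 7.98 in knockdown samples, a log2 change of 0.38 ± 0.12 (SE, n = 3; 1.30-fold). The dimmest read 5.66, 5.02 and 5.13 against 5.87, 5.99 and 6.04, a log2 change of 0.69 ± 0.16 (1.62-fold). At both probes the groups did not overlap, and in both control replicate 1 lay closest to the knockdown samples.

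The 2 middle Keap1 probes did not separate the groups. The brighter of them read 7.11, 6.85 and 6.84 in control and 7.16, 6.88 and 7.22 in knockdown samples (log2 change 0.16 ± 0.13, SE; 95% interval -0.14 to 0.45). The dimmer of them read 5.99, 6.13 and 5.79 against 6.20, 6.10 and 6.34 (0.24 ± 0.12; interval -0.04 to 0.52). The rise estimated at the dimmest probe lies outside both intervals, but its own 95% interval, 0.32 to 1.07, overlaps both. The probes are therefore not shown to differ. The dimmest probe was close to background in control replicates 2 and 3, with intensities of 15.5 and 17.9 where the lowest intensity above background on these arrays was 15.2 and 16.5.

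Nqo1 reduces quinones without releasing radicals and is among the most used readouts of Nrf2 activity. Its brighter probe read 6.94, 7.02 and 7.05 in control and 7.44, 7.19 and 7.59 in knockdown samples, so that every knockdown sample was above every control sample. The log2 change was 0.41 ± 0.12 (SE, n = 3; 95% interval 0.12 to 0.69; 1.32-fold), which is opposite in sign to that of Nfe2l2. Its other probe lay at background, with intensities between -10.8 and 11.3, on all 6 arrays.

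The promoter windows of these 3 genes are shown because they were the members past the threshold of the fit. Each window runs from 250 bases before to 50 bases after the annotated start, on the strand of the gene, from RefSeq on GRCm38.p6. The searches covered both strands for the antioxidant response element core, TGACNNNGC, and for the outer parts of the RE1 element that REST binds, TTCAGCACC and GGACAG. Capitals mark the matches. The windows are chr2:75704614-75704913 for Nfe2l2, chr9:21239283-21239582 for Keap1 and chr8:107403156-107403455 for Nqo1, all on the minus strand.
Nfe2l2: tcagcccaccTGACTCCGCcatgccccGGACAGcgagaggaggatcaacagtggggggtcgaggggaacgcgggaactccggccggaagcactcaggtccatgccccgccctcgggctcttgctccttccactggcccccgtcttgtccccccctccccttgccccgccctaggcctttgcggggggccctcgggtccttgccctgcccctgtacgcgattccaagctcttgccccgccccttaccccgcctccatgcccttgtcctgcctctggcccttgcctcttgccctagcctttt
Keap1: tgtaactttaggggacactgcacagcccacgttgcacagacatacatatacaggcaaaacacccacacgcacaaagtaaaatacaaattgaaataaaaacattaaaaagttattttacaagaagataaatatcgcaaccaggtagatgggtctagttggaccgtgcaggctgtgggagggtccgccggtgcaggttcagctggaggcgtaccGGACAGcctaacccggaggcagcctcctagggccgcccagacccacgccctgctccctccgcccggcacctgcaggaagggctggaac
Nqo1: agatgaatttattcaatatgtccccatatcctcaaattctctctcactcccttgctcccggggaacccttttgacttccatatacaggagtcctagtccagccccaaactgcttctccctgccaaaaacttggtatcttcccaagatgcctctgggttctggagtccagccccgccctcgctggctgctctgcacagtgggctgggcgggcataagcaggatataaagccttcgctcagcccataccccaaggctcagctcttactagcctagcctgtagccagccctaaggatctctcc
In the Nfe2l2 window the core stands at bases 11 to 19 and GGACAG at bases 28 to 33, counted from the 5′ end. Keap1 holds GGACAG at bases 213 to 218 and no core, and Nqo1 holds none of the 3 motifs. TTCAGCACC was in no member window. Sequence outside the windows was not searched, so the lack of a match says nothing about sites farther from the start.

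Of the other members, Gclm, Srxn1 and Txnrd1 each held 1 match to the core, on the strand opposite to the gene. These are given as stretches of 29 bases on the strand of the gene, with the match in capitals, at chr3:122245413-122245441, chr2:152105542-152105570 and chr10:82859104-82859132.
Gclm: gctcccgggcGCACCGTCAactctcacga
Srxn1: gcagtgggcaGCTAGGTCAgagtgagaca
Txnrd1: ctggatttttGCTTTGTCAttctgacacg
Only the second of the 3 Txnrd1 windows held the match, and that window also held GGACAG at bases 122 to 127. Slc7a11 held none of the motifs, and Hmox1, Gclc and Gsr had no window in the table. In all, 4 of the 9 member windows held the core, against 12.4% of all 32851 windows of this length. GGACAG was in 3 of 9 against 22.2%, and TTCAGCACC in 0 of 9 against 0.371%. The matches of different motifs did not overlap in any member window. The genes with a core match were Nfe2l2, which fell, Gclm and Srxn1, which were not called, and Txnrd1, which was too dim to test.

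Hmox1, the inducible enzyme that breaks down haem, did not separate the groups. It read 8.25, 7.98 and 8.10 in control and 7.69, 8.00 and 7.98 in knockdown samples. The knockdown values reached into the control range, with knockdown replicate 1 below all others. The log2 change was -0.22 ± 0.13 (SE, n = 3), with a 95% interval of -0.51 to 0.07 that leaves out a fall as large as that of Nfe2l2.

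The glutathione branch was represented by Gclm, the modifier subunit of glutamate-cysteine ligase, which catalyses the first step of glutathione synthesis. Gclm read 9.67, 9.66 and 9.34 in control and 9.67, 9.57 and 9.27 in knockdown samples, so the groups lay on top of each other. Its log2 change of -0.06 ± 0.14 (SE, n = 3; 95% interval -0.38 to 0.27) was the smallest of the members, and its sign turned in the authors' ratios (0.09) and without knockdown replicate 3 (0.06).

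Gclc, the catalytic subunit of the same enzyme, was too dim to test. Its only probe read 9.7, 18.4 and 8.5 in linear intensity in control and 5.2, 3.6 and 1.5 in knockdown samples. Control replicate 2 was the only array on which it was above background. Slc7a11, the cystine carrier that feeds glutathione synthesis, was above background on no array, with intensities between -5.8 and 15.

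In the thioredoxin branch, Srxn1 encodes sulfiredoxin, which restores over-oxidised peroxiredoxins. Its brightest probe read 7.77, 7.41 and 7.73 in control and 7.60, 7.82 and 7.85 in knockdown samples (log2 change 0.12 ± 0.13, SE, n = 3). The next probe read 6.11, 5.88 and 5.80 against 6.37, 6.16 and 6.12 (0.29 ± 0.12). The groups overlapped at the brightest probe and were only 0.009 apart at the next, and neither probe passed the threshold. The last Srxn1 probe was above background on no array.

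Txnrd1, the cytosolic thioredoxin reductase, had a single probe near the limit of detection. It read 9.3, 2.4 and 15.4 in linear intensity in control and 12.1, 13.7 and 19 in knockdown samples, and was above background on knockdown replicate 3 only. No fold is given for Gclc, Slc7a11 or Txnrd1, whose levels in both groups are at or near background.

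**Figure D2:**
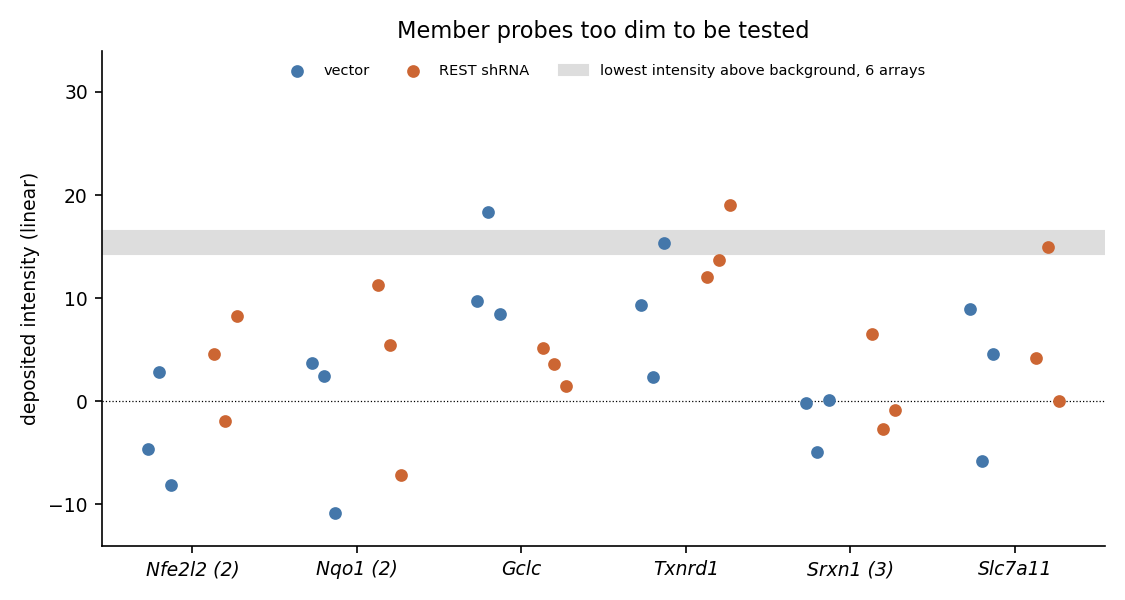
Deposited linear intensity of the 6 member probes that did not pass the filter, in the 3 vector and 3 REST shRNA samples (points), with the range over the 6 arrays of the lowest intensity above background (14.3 to 16.5) as a grey band and 0 as the dotted line. Only the highest Gclc sample (18.4) and the highest Txnrd1 sample (19) were above background on their own array.

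By the rule of the fit, an adjusted p under 0.05 over all 12406 tested probes, 3 member probes were higher (2 of Keap1 and 1 of Nqo1), 1 was lower (Nfe2l2) and 6 were not called. Over all tested probes 25.9% were called, 12.8% higher and 13.1% lower. The authors' ratios gave 2118 probes higher and 907 lower, against 1590 and 1619 here and 1477 and 1590 with median scaling. The balance of directions in the authors' ratios thus differed from that here, and the cause was not tested. The groups did not overlap at 5 of the 10 member probes, against 43.3% of all tested probes. The median log2 change was 0.20 over the 10 member probes and -0.01 over all tested probes. Since the members were picked with this contrast in view, nothing is read from these counts. Only the Nfe2l2 call held under all 13 other settings. The brightest Keap1 probe was called in 5 of 13, the dimmest in 9 of the 12 in which it was tested and Nqo1 in 6 of 13. None of the 3 was called when either of control replicates 2 and 3 or knockdown replicate 3 was left out, where their log2 changes lay between 0.31 and 0.66.

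**Figure D3:**
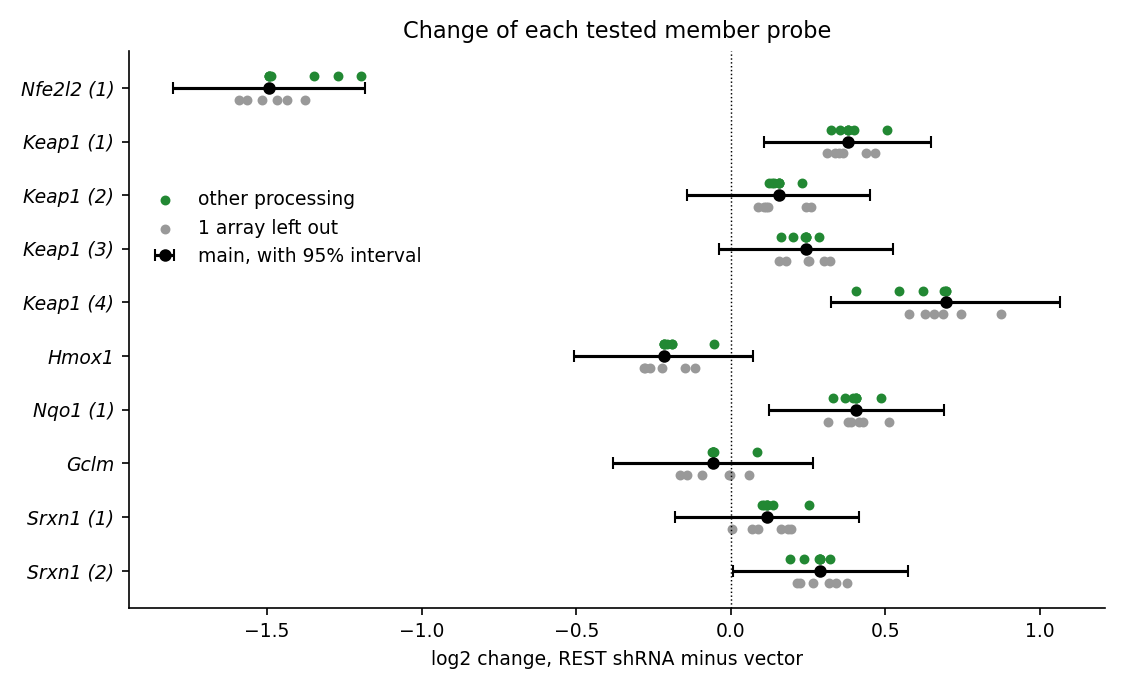
Log2 change, REST shRNA minus vector, of the 10 tested member probes: black points with 95% intervals are the reported values, green points are the 7 other ways of processing and grey points are fits with 1 array left out. Nfe2l2 stays between -1.59 and -1.20, the Keap1 and Nqo1 points all lie above 0, and those of Gclm lie on both sides of it.

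The further genes of the pathway came from lists written for this work with earlier results of these arrays known. Each gene was taken at its brightest tested probe, and 13.9% of all tested genes rose and 13.1% fell by the same rule. Among family members and regulators of Nrf2, 1 of 12 tested genes rose, 2 fell and 9 were not called (median log2 change -0.01, against 0.00 over all tested genes). Nfe2l1, the relative of Nfe2l2 that drives proteasome genes, read 10.31, 10.36 and 10.27 in control and 9.76, 9.91 and 9.66 in knockdown samples. It fell by 0.54 ± 0.11 on the log2 scale (SE, n = 3; limma adjusted p = 0.00778), in the direction of Nfe2l2 with no overlap of the groups.

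Sqstm1, the autophagy receptor p62, which competes with Nrf2 for Keap1 and is itself a target, fell by 0.47 ± 0.12 (adjusted p = 0.0214). The call was lost in the authors' ratios and without control replicate 2, knockdown replicate 1 or knockdown replicate 3 (highest adjusted p = 0.0852). Hdac3, a deacetylase, rose by 0.41 ± 0.10 (1.33-fold; adjusted p = 0.0202), and its call was lost without control replicate 1 or 3 or knockdown replicate 1 or 2 (highest adjusted p = 0.0689). Cul3, the scaffold of the ligase that Keap1 serves, had a log2 change of 0.10 ± 0.11, the competing repressor Bach1 one of -0.00 ± 0.11 and the small Maf partner Mafg one of 0.10 ± 0.11. These 3 were picked for their roles after their values were seen, and none passed the test.

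Of 27 further Nrf2 targets tested, 2 rose, 5 fell and 20 were not called (median log2 change -0.07). The largest change was in Gpx2, a glutathione peroxidase known mainly from the gut lining, and it was a rise. Gpx2 read 8.00, 8.02 and 7.85 in control and 9.43, 9.26 and 9.29 in knockdown samples. The log2 change was 1.37 ± 0.11 (SE, n = 3; limma adjusted p = 0.000133), a 2.58-fold rise that was called under all 13 other settings.

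The next genes of this list by p-value were enzymes of detoxification and thiol repair. Cbr3, a carbonyl reductase, fell by 0.70 ± 0.12 on the log2 scale (adjusted p = 0.00382) and Blvrb, a biliverdin reductase downstream of haem oxygenase, by 0.62 ± 0.11 (adjusted p = 0.00501), both under all 13 other settings. Cbr3 had another, dimmer probe, with a change of -0.07 ± 0.24 that was not called. Glutaredoxin Glrx rose by 0.39 ± 0.10 (1.31-fold; adjusted p = 0.0193), a call lost without control replicate 2 or knockdown replicate 2. The other 3 falls, singled out with their values known, were in the pentose phosphate enzyme Tkt (-0.39, and -0.26 at its other probe, which was not called), the NADPH-producing Idh1 (-0.35) and the epoxide hydrolase Ephx1 (-0.42). All 3 lost the call in the authors' ratios and without control replicate 2 or 3 or knockdown replicate 3 (highest adjusted p = 0.287). Each lost it in further settings too, and Tkt, Idh1 and Ephx1 were called in 7, 5 and 6 of the 13 other settings.

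Among the genes of the list that were not called, Prdx1, a peroxiredoxin, had a log2 change of 0.15 ± 0.10, Gstp1, a glutathione transferase, one of 0.15 ± 0.10 and the ferritin heavy chain Fth1 one of 0.08 ± 0.10 (SE, n = 3). At these probes every knockdown sample was above every control sample, but the other probe of Fth1 gave -0.19 ± 0.13 and that of Gstp1 0.00 ± 0.10. The groups also did not overlap for the uncalled Mgst1 (0.33 ± 0.13), Cbr1 (-0.33 ± 0.11), Slc48a1 (-0.25 ± 0.11) and Gss (-0.21 ± 0.11). Over all tested probes, the groups did not overlap at 43.3%. These genes were named after their values were seen.

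Of 24 tested genes listed as other antioxidant enzymes, which are not classical Nrf2 targets, 3 rose, 3 fell and 18 were not called (median log2 change -0.05). Txnip, an inhibitor rather than an enzyme, is counted in this list here and below. Gpx7, a peroxidase of the endoplasmic reticulum, fell by 0.75 ± 0.11 on the log2 scale (limma adjusted p = 0.00231; SE, n = 3), from 8.65, 8.48 and 8.63 in control to 7.96, 7.72 and 7.80 in knockdown samples. Of these 6 genes, only Gpx7 was called under all 13 other settings. The mitochondrial thioredoxin reductase Txnrd2 rose by 0.45 ± 0.11 (1.36-fold; adjusted p = 0.0188), and its other probe gave 0.40. It was not called when control replicate 1 or 2 or knockdown replicate 2 or 3 was left out (highest adjusted p = 0.0630).

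The methionine sulfoxide reductases went opposite ways. Msrb2, the mitochondrial form, rose by 0.51 ± 0.14 (adjusted p = 0.0252), and its other probe gave 0.40 ± 0.16, which was not called (adjusted p = 0.106). Msrb1, the selenoprotein form, fell by 0.43 ± 0.12 (adjusted p = 0.0258), and its other probe, also called, gave -0.56. Msrb2 was not called without control replicate 2 or 3 or knockdown replicate 3. Msrb1 was not called in the authors' ratios, with the replicate number as a block, or without control or knockdown replicate 1 or 2. The remaining calls, named after their values were seen, were Txnip (-0.50), the inhibitor of thioredoxin, and Txnrd3 (0.33), and they were called in 5 and 4 of the 13 other settings. The superoxide dismutases Sod1 (-0.04 ± 0.10) and Sod2 (-0.03 ± 0.12) and the catalase gene Cat (0.05 ± 0.11), picked for their roles with their values known, did not pass the test.

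Of the genes of these 3 lists, Glrx2, Sesn1, Glrx3, Prdx2 and Rbx1 were called at a dimmer probe but not at the brightest, by which they are counted above. They are named for that difference, after their values were seen. Glrx2, a mitochondrial glutaredoxin, gave 0.90 ± 0.17 at its other probe and 0.23 ± 0.17 at the brightest (SE, n = 3). Its brightest probe averaged only 5.93 on the log2 scale in control and 6.17 in knockdown samples, and the other was dimmer still. Sesn1, a sestrin, gave -0.76 ± 0.12 and -0.24 ± 0.15, and Glrx3, another glutaredoxin, gave -0.68 ± 0.11 and -0.32 ± 0.14. Prdx2, a peroxiredoxin, gave -0.48 ± 0.14 and -0.31 ± 0.12, and Rbx1, the RING subunit of the Keap1 ligase, gave -0.37 ± 0.11 and -0.26 ± 0.13. The cause of the disagreement was not tested.

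Slc7a11 is also induced by ATF4, the factor of the amino acid response, and that program was measured beside it. Of 15 tested ATF4 targets, 6 fell, none rose and 9 were not called (median log2 change -0.36, against 0.00 over all tested genes); 1 rose in the authors' ratios and with an offset of 50. The falls of Ddit3 and Nupr1 were known when the list was written, so the list is not independent evidence of its direction. The stress regulator Ddit3 fell by 1.14 ± 0.19 on the log2 scale (limma adjusted p = 0.00371; SE, n = 3), Nupr1 by 1.08 ± 0.14 (adjusted p = 0.00148) and the mTORC1 inhibitor Ddit4 by 0.82 ± 0.14 (adjusted p = 0.00415).

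Cth makes cysteine from cystathionine and so supplies glutathione from within the cell. It read 5.97, 5.63 and 5.91 in control and 5.28, 5.05 and 4.83 in knockdown samples, where it was above background on 2 of 3 arrays. The fall was 0.79 ± 0.15 on the log2 scale (adjusted p = 0.00557). Trib3 (-0.65) and Phgdh (-0.60), named after their values were seen, completed the falls, and all 6 were called under every other setting in which they were tested (highest adjusted p = 0.0472). Among the genes counted as not called, Shmt2, a mitochondrial enzyme of serine and glycine metabolism, was called lower at its dimmer probe (-0.94 ± 0.12, against -0.33 ± 0.13 at the brightest). The same held for Cbs, which makes cystathionine (-0.42 ± 0.11 against -0.46 ± 0.18). Atf4 itself had a log2 change of -0.03 ± 0.15, and was not called. Its only tested probe read 4.91 to 5.34, above background on 2 of 3 control and 2 of 3 knockdown arrays. A signal this near background does not show whether Atf4 RNA changed. In the other direction, Asns had positive changes at all its tested probes (0.30, 0.20 and 0.28). Slc7a5 had a change of 0.22 ± 0.10 without overlap of the groups. Neither gene was called by the rule of the fit. Shmt2, Cbs, Atf4, Asns and Slc7a5 were likewise named with their values known.

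**Figure D4:**
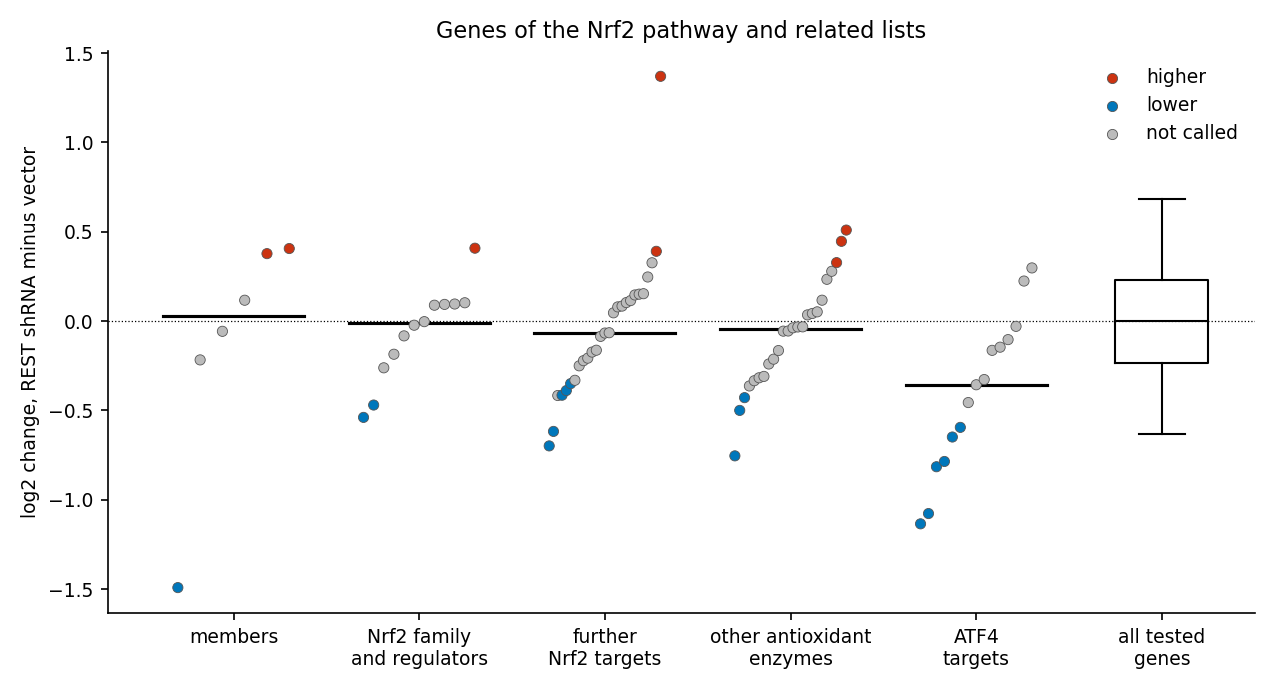
Log2 change, REST shRNA minus vector, of each tested gene at its brightest probe (points) for the members and the 4 lists, with list medians as black lines and, at the right, all 8740 tested genes as a box of quartiles with whiskers at the 5th and 95th percentiles. Red and blue mark genes called higher and lower; Nfe2l2 at -1.49 and Gpx2 at 1.37 are the extremes of the members and lists, and the ATF4 median lies at -0.36.

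To place Nfe2l2 among the other genes, the 6 values of each tested gene were centred on the gene's own mean and set against those of Nfe2l2. The smallest root mean square differences, among 8739 genes over 6 arrays, were those of Gadd45b (0.05), a stress-inducible gene, Islr2 (0.08), Cort (0.09), a neuropeptide, H1f1 (0.11), a linker histone, and Igfbp4 (0.13), which binds insulin-like growth factors. Gadd45b read 7.70, 8.13 and 7.75 in control and 6.46, 6.24 and 6.21 in knockdown samples, with control replicate 2 the highest, as in Nfe2l2. Islr2 and H1f1 were above background on no knockdown array, so their log2 values there only bound their levels. The likeness is a description over the arrays that also gave the fall, and none of the 5 was a gene of the lists above.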

How the data were processed

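Expression was measured in 3 control and 3 REST shRNA samples, grouped by their titles. The raw table deposited by the authors gives a linear intensity and a detection score for each probe and array. Per the file headers the score is a detection p-value. Bright probes scored 1, however, so 1 minus the deposited score was taken as the detection p. The deposited value table holds a linear ratio per probe, with array medians from 1.00 to 1.05. It equalled the intensity minus the array minimum, plus 0.1, over a term per probe and per array (within 0.001 on the log2 scale for 100% of values). Neither the reference per probe nor the software is given in the sources used here.

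Intensities were background corrected with the normal-exponential model and detection p of limma 3.58.1 (R 4.3.3), with an offset of 16, quantile normalized and put on the log2 scale. The 12406 probes above background (detection p under 0.05) on 3 arrays or more entered a linear model in limma (lmFit and eBayes) that had no term besides group. Benjamini-Hochberg adjustment ran over all 12406. A gene was represented by its brightest tested probe. Gene names came from the platform annotation (23978 probes with a symbol, 1719 without). The number of arrays limits the precision, and with 3 against 3 an exact permutation test cannot give a p below 0.10.

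The members and lists were chosen with earlier results of these data known. Named were all members, the 4 called genes with the smallest p in each list, and the 5 genes most like Nfe2l2. Further genes, named after their values were seen, are marked so in the text. The fit was repeated with median scaling, without background correction, on the authors' ratios, with an offset of 50, with no filter or a stricter one (detection p under 0.01 on all 6 arrays), with the replicate number as a block, and leaving out each array. Protein sequences were not used here.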

Additional observations from a re-analysis of the deposited data

How the results depend on the processing

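The fall of Nfe2l2 was called under all 13 other settings, at -1.27 in the authors' ratios, -1.20 with an offset of 50 and between -1.59 and -1.38 with 1 array left out. All these settings reuse the arrays on which Nfe2l2 was chosen, and its single tested probe. They are therefore no independent evidence of the fall. With 1 array left out, 1027 to 1355 probes were higher and 991 to 1368 lower, with the lowest counts without control replicate 2 and without knockdown replicate 3 (1029 higher and 1003 lower). In the authors' ratios 907 probes were lower, and 1 Nrf2 family gene or regulator, 2 further Nrf2 targets and 1 other antioxidant enzyme were lower, while 1 ATF4 target was higher. With an offset of 50, 6 other antioxidant enzymes were lower and 1 ATF4 target was higher, and with a detection p under 0.01 on all arrays 5 other antioxidant enzymes were lower. Leaving out 1 array gave 0 to 1 family genes or regulators higher and 1 to 3 lower, 1 to 2 further targets higher and 2 to 4 lower, and 0 to 2 other antioxidant enzymes higher and 1 to 4 lower. For ATF4 targets it gave 0 higher and 6 to 7 lower. The cause of these shifts was not tested. With the replicate block, 1418 probes were higher and 1463 lower, 3 further Nrf2 targets and 1 other antioxidant enzyme were lower, and Keap1 at its brightest probe and Nqo1 were no longer called. Same-numbered arrays had deviations from their group means that correlated at only -0.06, 0.03 and 0.04, and the block was therefore not treated as a pairing. No member probe or called gene of the lists reversed its direction under these settings, other than Gclm, which was never called. Signal near background limits what can be said of Gclc, Txnrd1, Slc7a11 and Atf4.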
